A study of Mus musculus with 3 samples.

Results

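The genes described here are 10 heat shock chaperones, Hspa1a, Hspa1b, Dnajb1, Hspb1, Hsph1, Hsp90aa1, Hspa8, Hspe1, Hspd1 and Hspa5, found by their symbols among the 32285 genes counted in single mononuclear cells of the mouse diaphragm, the main muscle of inspiration. They were chosen on their levels by cell class and library in these same data, so those levels and the ratios between libraries are a description and carry no test. The study asked how diet-induced obesity and thrombospondin-1, a secreted matrix protein encoded by Thbs1, act on the stroma of the diaphragm. There were 3 libraries, 1 per group, each of male mice, given as n = 2 mice and, for the WT groups, as pooled diaphragms: C57Bl/6J mice on control diet (WT CD), C57Bl/6J mice on high-fat diet with 45% of its calories from lipid (WT HFD), and mice of the strain B6.129S2-Thbs1tm1Hyn/J, which lack Thbs1 in every cell, on the same high-fat diet (KO HFD). By the methods the diets began at 2 months of age and lasted 6 months. There was no KO library on control diet, so the diet could not be compared within the KO strain, and the lack of Thbs1 and the strain that carries it cannot be told apart. By the methods the cells of all 3 libraries were isolated from costal diaphragms on the same day, by warm collagenase digestion lasting over 1 h. As no group had a second library, differences between groups cannot be told apart from differences between single preparations.

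Chaperones bind unfolded or partly folded proteins and keep them from aggregating while they fold. HSP70 proteins do this in cycles of ATP hydrolysis, started by a J-domain co-chaperone and reset by a nucleotide exchange factor, and pass some clients on to HSP90. Under heat or protein damage the transcription factor HSF1 binds heat shock elements, repeats of nGAAn, and quickly raises the transcription of Hspa1a and Hspa1b, which are otherwise low in many cells. The endoplasmic reticulum has an HSP70 of its own, Hspa5 (BiP), whose gene answers to the unfolded protein response, and mitochondria have the Hspd1 and Hspe1 chaperonin. In muscle, small heat shock proteins such as Hspb1 are known for guarding the cytoskeleton. Enzymatic digestion of a tissue at body temperature is known to induce immediate early and heat shock genes in the cells it releases, so the level in a suspension need not be the level in the animal.

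Start-site sequences are shown first for 5 members, because the heat shock element is the known switch of the inducible members. RefSeq (GRCm38.p6) gave 11 windows of 300 bases around a start site for 8 of the 10 members. Hspa8 and Hsp90aa1 are named only. Capitals mark a match to GAANNTTC or TTCNNGAA, pairs of heat shock repeats that read the same on both strands and can overlap by sharing a repeat, or, in Hspa5, to the endoplasmic reticulum stress element, CCAAT followed 9 bases later by CCACG on either strand. The inducible pair is shown to compare the copies, Hspb1 for its 2 matches, Hspe1 for a start region shared with Hspd1, and Hspa5 for its different element. Hspa1a lies at chr17:34972107-34972406, Hspa1b at chr17:34959189-34959488, both on the minus strand, and Hspb1 at chr5:135887669-135887968, Hspe1 at chr1:55087898-55088197 and Hspa5 at chr2:34771840-34772139 on the plus strand.
Hspa1a: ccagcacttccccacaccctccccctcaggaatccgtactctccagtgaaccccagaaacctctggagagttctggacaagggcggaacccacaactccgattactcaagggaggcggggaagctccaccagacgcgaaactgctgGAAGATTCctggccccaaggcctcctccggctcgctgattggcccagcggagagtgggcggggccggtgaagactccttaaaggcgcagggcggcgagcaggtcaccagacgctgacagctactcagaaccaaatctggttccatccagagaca
Hspa1b: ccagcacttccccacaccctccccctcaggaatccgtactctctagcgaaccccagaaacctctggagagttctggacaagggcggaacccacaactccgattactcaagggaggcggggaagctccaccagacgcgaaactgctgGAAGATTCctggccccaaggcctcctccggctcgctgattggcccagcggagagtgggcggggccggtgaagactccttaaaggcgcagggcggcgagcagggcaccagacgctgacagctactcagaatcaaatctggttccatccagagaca
Hspb1: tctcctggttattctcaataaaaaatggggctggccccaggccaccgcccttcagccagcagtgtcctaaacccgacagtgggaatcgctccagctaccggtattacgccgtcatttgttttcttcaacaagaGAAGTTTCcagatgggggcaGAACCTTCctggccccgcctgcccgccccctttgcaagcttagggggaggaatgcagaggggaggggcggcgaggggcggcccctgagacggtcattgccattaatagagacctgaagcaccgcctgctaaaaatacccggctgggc
Hspe1: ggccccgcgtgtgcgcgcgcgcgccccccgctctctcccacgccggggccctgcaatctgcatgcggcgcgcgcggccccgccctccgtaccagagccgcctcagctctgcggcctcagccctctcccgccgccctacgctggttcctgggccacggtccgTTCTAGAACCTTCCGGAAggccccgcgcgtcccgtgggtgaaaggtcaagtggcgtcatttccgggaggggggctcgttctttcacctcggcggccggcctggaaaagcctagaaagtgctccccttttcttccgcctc
Hspa5: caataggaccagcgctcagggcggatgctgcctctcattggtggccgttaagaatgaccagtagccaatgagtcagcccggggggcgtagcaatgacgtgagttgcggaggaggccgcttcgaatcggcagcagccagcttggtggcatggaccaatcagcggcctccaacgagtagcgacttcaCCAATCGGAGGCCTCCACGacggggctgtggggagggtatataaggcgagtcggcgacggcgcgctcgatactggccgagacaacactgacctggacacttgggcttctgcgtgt

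The windows of Hspa1a and Hspa1b were identical at 296 of 300 bases (98.7%), and each had 1 match, GAAGATTC, starting 104 bases before the start site. Counted from 1 at the 5′ end of the window, the substitutions from Hspa1a to Hspa1b were C44T, T47C, T249G and C276T, none of them inside that match. Hspb1 had matches 117 and 97 bases before its start. Hspe1 had 3 overlapping matches 89, 84 and 79 bases before its start, and the same bases, read on the other strand, gave the 3 matches of 1 of the 2 Hspd1 windows. The 2 Hsph1 windows overlapped and held the same 3 matches, 1 before either start site and 2 after it. No match to either heat shock motif was found in the windows of Dnajb1 or Hspa5, while Hspa5 held the endoplasmic reticulum element 65 bases before its start. Of 32851 windows of the same length, 7.86% held GAANNTTC, 8.52% TTCNNGAA, 15.1% either of them and 0.119% the endoplasmic reticulum element. A match is a description of letters and not a measured binding site.

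By the GRCm38 annotation Hspa1a (ENSMUSG00000091971) spans 34969190 to 34972156 and Hspa1b (ENSMUSG00000090877) spans 34956436 to 34959238 of chromosome 17. The copies share 1350 of the 2868 windows of 100 bases in the Hspa1a transcript, but none of the windows in its last 500 bases, the end that this chemistry reads. Reads from the shared stretches could not be assigned to 1 copy, so the split between the copies is given as uncertain and their sum, called the HSP70 pair below, is used where possible. For Hspa8, 79.3% of the windows in the last 500 bases also occur in other genes, most often the pseudogene Gm15459, for Hspe1 34.4% and for Hspb1 4.74%, so the Hspa8 and Hspe1 counts may leave out reads that fit more than 1 gene. The other members had none.

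The library of WT mice on control diet held 4132 cells, that of WT mice on HFD 3774 and that of KO mice 4369, with 34312860, 31967976 and 36478779 unique molecular identifiers (UMIs), each of which marks 1 captured mRNA molecule. The median cell had 7632.5, 8041.5 and 7554 UMIs. Barcode sequences also seen in another library numbered 14, 9 and 9. Cells were placed in classes by marker genes, and a class is named "-like" for that reason. Of 12275 cells, 11422 passed the gate, 7 classes had at least 30 cells in every library, and 5 more had at least 10. The 7 were fibro-adipogenic progenitors (FAP-like, 2286, 2008 and 2457 cells in the order above), muscle stem cells (MuSC-like, 340, 273 and 447), endothelial (292, 291 and 239), lymphatic endothelial (49, 99 and 56), macrophage (261, 444 and 531), B cell (417, 152 and 92) and T or NK cell (64, 41 and 58). A level is given as CPM, the gene's count per 1000000 UMIs summed over a class, always in this order of libraries. One UMI stands for 1 molecule whatever its length, so levels of different genes can be set side by side, except that those of Hspa8 and Hspe1 may be too low for the reason above. Intervals are exact 95% limits for counting error only.

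Thbs1 itself stood at 136, 202 and 163 CPM in the whole libraries and at 194, 230.4 and 227 CPM in FAP-like cells, and at 99.98, 333 and 91.7 CPM in macrophage-like cells. It was thus counted in the KO HFD library, and its level does not check the genotype. A gene disrupted away from its 3′ end can still give 3′ reads, but whether this holds here was not tested.

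Both genes of the HSP70 pair had a wider range between classes than Hspa8, the other cytosolic HSP70 gene among the members. Hspa1a, the stress-inducible HSP70, was highest in endothelial-like cells at 1825, 781 and 1208 CPM. It followed in macrophage-like cells at 941, 606 and 735 CPM and in MuSC-like cells at 1086, 467 and 490.3 CPM. FAP-like cells, the largest class, had 325, 159 and 225 CPM. The first 3 classes overlapped in their ranges over the libraries, FAP-like cells lay below all 3, and the WT CD value was the highest of the 3 in each of these 4 classes. Lymphocytes lay far below, with 50.3, 39.6 and 57.1 CPM in B cell-like and 75.3, 36.0 and 121 CPM in T or NK cell-like cells. Over the 3 libraries the endothelial mean was 25.9 times the B cell mean. Hspa1b, its near copy, had the same highest and lowest of the 7 classes, with 989.9, 473 and 657 CPM in endothelial-like cells and 44.8, 32.6 and 51.2 CPM in B cell-like cells.

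Which copy made up more of the pair differed between classes. Hspa1b gave 58.6% (95% interval 53.4 to 63.7), 58.4% (53.3 to 63.5) and 61.4% (54.5 to 68.0) of the pair's UMIs in lymphatic-like cells. In endothelial-like cells it gave 35.2, 37.7 and 35.2%, in MuSC-like cells 36.5, 38.0 and 34.5%, and in FAP-like cells 44.8, 43.4 and 43.5%. The lymphatic intervals did not overlap those of these 3 classes in any library, with the reservation on the split given above.

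By the mean over the 3 libraries, both co-chaperones of HSP70 were highest in MuSC-like cells, with ranges that overlapped those of lymphatic-like cells for Hsph1. Dnajb1, a J-domain protein that hands clients to HSP70, stood there at 584, 397 and 419.5 CPM and in FAP-like cells at 248, 171 and 233 CPM. Hsph1, a nucleotide exchange factor, stood at 184, 111 and 123 CPM in MuSC-like cells and at 83.2, 70.8 and 78.4 CPM in FAP-like cells. Hspa8, the constitutive HSP70 that works in unstressed cells, was abundant in all 7 classes, at 1816, 1482 and 1728 CPM in FAP-like cells, with a highest class mean of 2705 CPM (MuSC-like) and a lowest of 1239 CPM (B cell-like). Hsp90aa1, the inducible cytosolic HSP90, had 2013, 1477 and 1723 CPM in MuSC-like cells and 923, 714 and 888 CPM in FAP-like cells. For both genes the classes thus differed far less than for the inducible pair, by 2.18 and 2.32 times between the highest and the lowest mean.

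Hspb1, a small heat shock protein that binds actin and intermediate filaments, was the most class-restricted member. Endothelial-like cells had 2229.6, 1574 and 1575 CPM, and the smaller mesothelial and mural classes also had over 1000 CPM in every library. MuSC-like cells had 926, 484 and 479 CPM and FAP-like cells 661, 379 and 486 CPM. MuSC-like and FAP-like cells overlapped, and both lay below the endothelial-like range. The gene was scarce in immune cells, at 62.1, 38.9 and 45.7 CPM in macrophage-like cells. In T or NK cell-like cells 2, 0 and 0 UMIs were found. There, 3 counts over the class total, taken as the limit that a count of 0 allows, come to 11.99 and 9.28 CPM in the HFD libraries.

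The organelle chaperones had other orders of classes. Hspa5, the HSP70 of the endoplasmic reticulum, where collagens and other secreted proteins fold, was highest in FAP-like cells at 2267, 2022 and 2268 CPM. It was lowest of the 7 classes in endothelial-like cells at 687, 612 and 714 CPM. Hspe1, the lid of the mitochondrial chaperonin, had its highest mean in T or NK cell-like cells (467 CPM) and its lowest, like Hspa5, in endothelial-like cells (188 CPM). Hspd1, the barrel of that chaperonin, varied least, from a mean of 125 CPM in lymphatic-like to 174 CPM in T or NK cell-like cells. In FAP-like cells Hspe1 stood at 269.8, 249.8 and 242 CPM and Hspd1 at 126, 132 and 133 CPM.

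**Figure D1:**
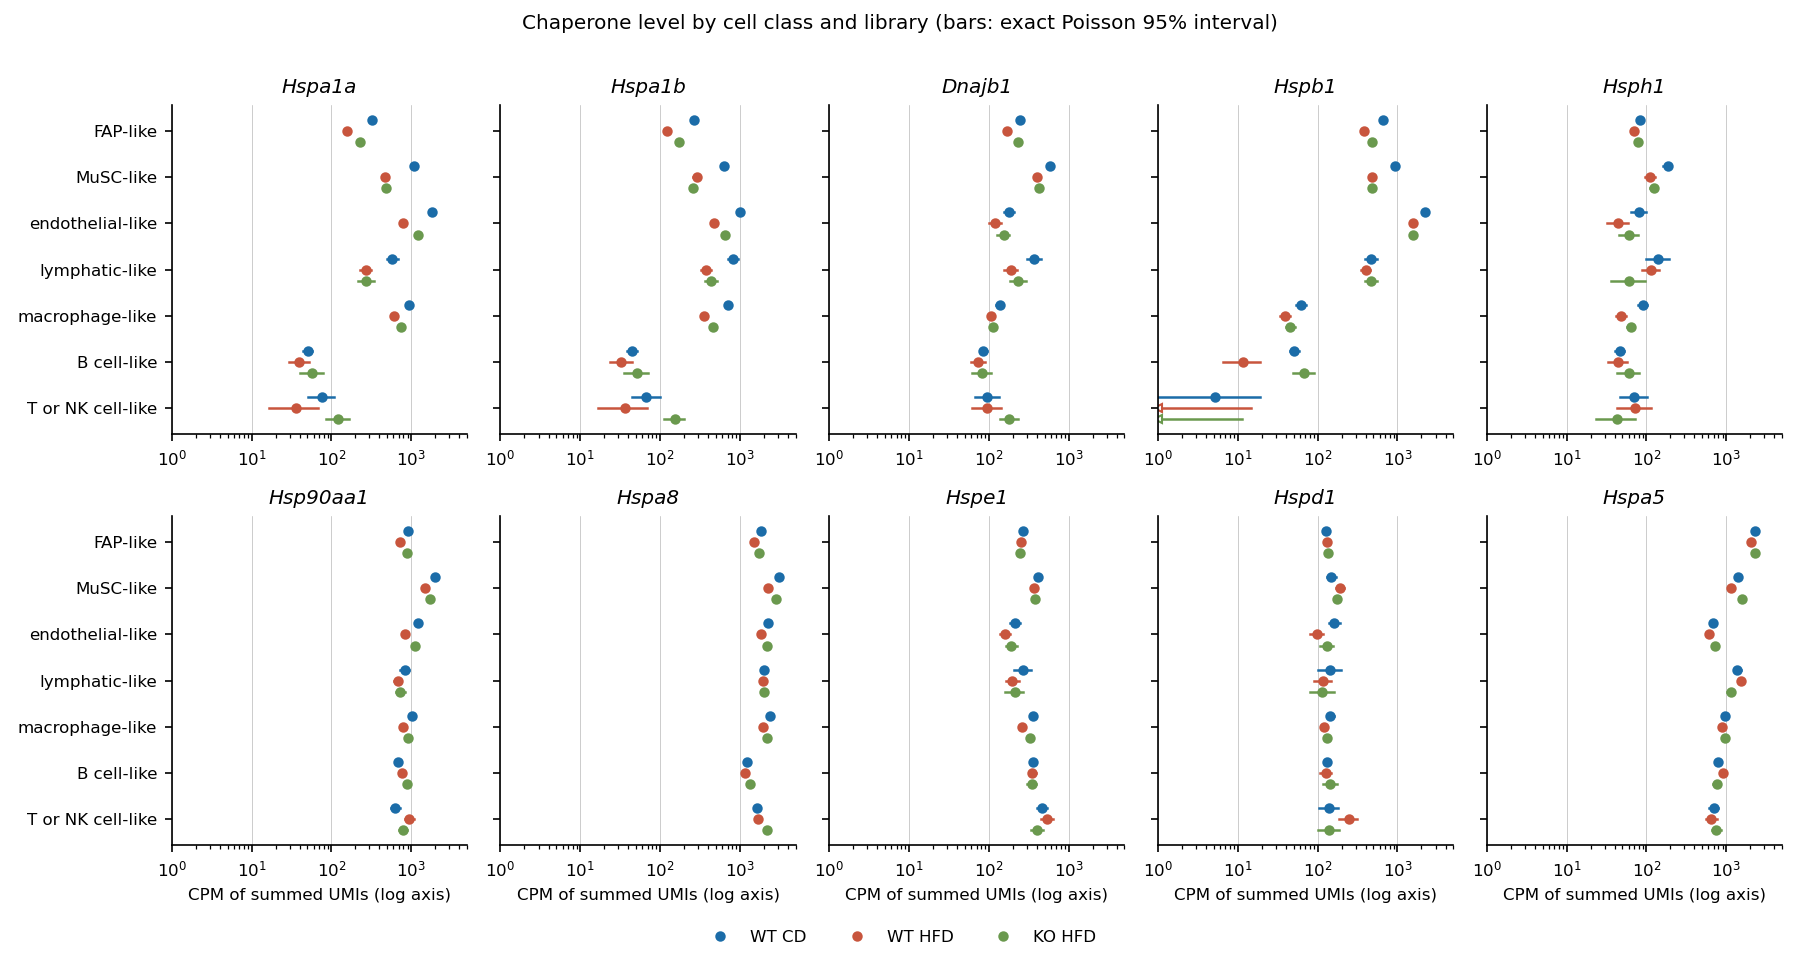
Level of each of the 10 chaperones (x axis, CPM of summed UMIs, log scale) in 7 cell classes (y axis), with 1 point per library and exact Poisson 95% intervals. Hspa1a and Hspa1b span the classes widely and their WT HFD points lie to the left of the WT CD points in all 7 classes, Hspb1 is near 0 in T or NK cell-like cells (open symbols at the left edge mark a count of 0), and Hspa5 is highest in FAP-like cells.

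The diet comparison set the WT HFD library against the WT CD library within each class. A gene was compared where either library reached 20 CPM, and a gene was said to have fallen or risen where it passed 1.5-fold, the study's linear cutoff. The inducible HSP70 genes were lower on HFD in every one of the 7 classes. In FAP-like cells the pair went from 589 to 281 CPM, a log2 ratio of −1.07 (−1.11 to −1.02), or 2.10-fold lower. It fell from 1710.2 to 754 CPM in MuSC-like cells (−1.18, −1.28 to −1.08), from 2815 to 1254 CPM in endothelial-like cells (−1.17, −1.26 to −1.07) and from 1405 to 647 CPM in lymphatic-like cells (−1.12, −1.33 to −0.91). The macrophage difference was smaller, from 1659 to 965 CPM (−0.78, −0.84 to −0.72). B cell-like cells had 95.2 and 72.2 CPM (−0.40, −0.74 to −0.07), within 1.5-fold and from −1.94 with every cell weighted alike to 0.30 with classes taken from clusters, and T or NK cell-like cells 143 and 71.9 CPM (−0.99, −1.84 to −0.20). The T or NK cell value rested on 55 and 18 UMIs, and without the single WT CD cell that lay outside the cluster of that name it was 0.029, a choice made after seeing the data. In WT CD and WT HFD, B cell-like cells held 91 and 7 cells of a cluster led by Igkc, Jchain and Ighm. The larger B cell cluster held 322 and 144, so the B cell values of this comparison mix clusters in different shares. Read over whole libraries the pair stood at 754 and 446 CPM (−0.76), a smaller ratio than within the FAP-like, MuSC-like, endothelial-like or lymphatic-like cells, and the classes made up different shares of the libraries. In the small classes the pair was within 1.5-fold, at 949 and 773 CPM in Schwann-like, 451 and 326 CPM in mesothelial-like, 449 and 313 CPM in dendritic cell-like and 694 and 521 CPM in mural-like cells, and neutrophil-like cells held 0 and 1 UMI of it.

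Among the 10 members in FAP-like cells, 3 passed 1.5-fold lower and none passed it higher, while 0.778% of the 5783 genes compared there passed it lower and 0.64% higher. They were Hspa1b (−1.11), Hspa1a (−1.03) and Hspb1 (−0.80). Dnajb1 (−0.54), Hsp90aa1 (−0.37), Hspa8 (−0.29), Hsph1 (−0.23), Hspa5 (−0.17) and Hspe1 (−0.11) were lower but within 1.5-fold, although Dnajb1 passed it after trimmed-mean scaling (−0.60), and Hspd1 was at 0.06, or −0.00 after trimmed-mean scaling. Ranked from the lowest ratio of all genes compared, Hspa1b was 11th, Hspa1a 13th, Hspb1 24th and Dnajb1 55th, and Hspd1 was 2465th. Of the 6 members with heat shock letters in a window, Hspa1a, Hspa1b and Hspb1 were past the cutoff in these cells and Hsph1, Hspd1 and Hspe1 were not. The median log2 ratio was −0.33 over the members and 0.09 over all genes.

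**Figure D2:**
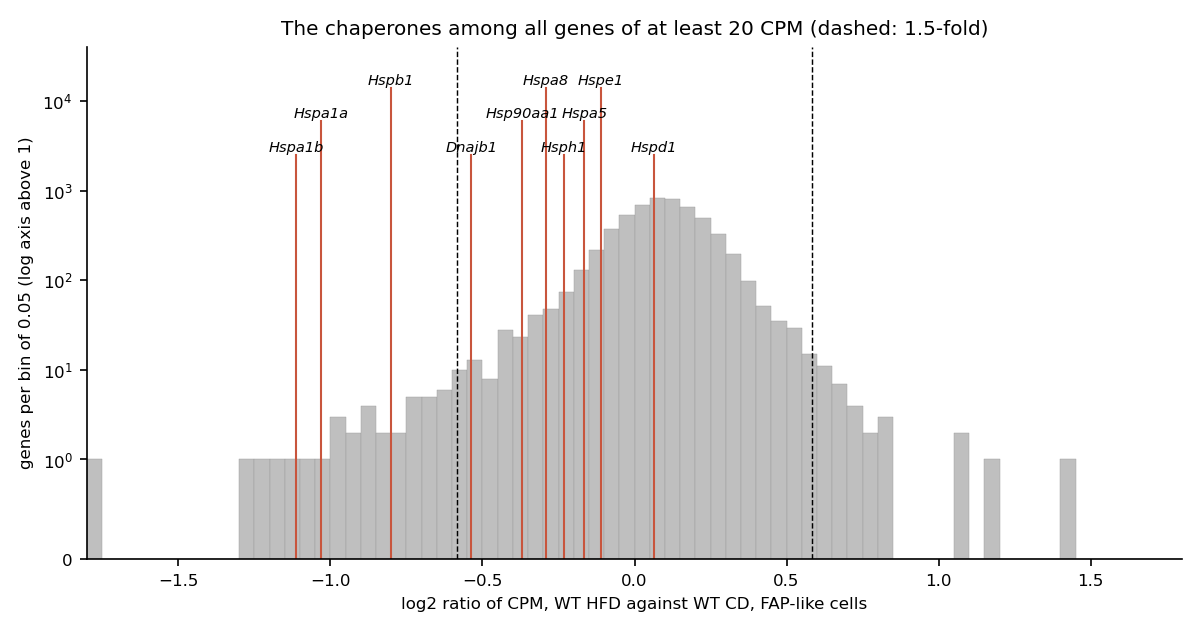
Log2 ratio of CPM between the WT HFD and WT CD libraries in FAP-like cells (x axis) for all 5783 genes of at least 20 CPM, as the number of genes per bin of 0.05 (y axis, log scale above 1), with the 10 chaperones as red lines whose heights only separate the names and dashed lines at 1.5-fold. Hspa1b, Hspa1a and Hspb1 lie beyond the lower dashed line and Hspd1 in the bulk of the genes.

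In MuSC-like cells 4 of 10 members fell (Hspa1a, Hspa1b, Hspb1 from 926 to 484 CPM, and Hsph1 from 184 to 111 CPM), against 3.62% of all genes. In endothelial-like cells 4 fell (Hspa1a, Hspa1b, Hsph1 and Hspd1, the last from 163 to 96.8 CPM), against 5.38%. In lymphatic-like cells 3 fell (Hspa1a, Hspa1b and Dnajb1, the last from 368 to 189 CPM), against 10.9%. Macrophage-like cells had 4 (Hspa1a, Hspa1b, Hspb1 and Hsph1), against 3.9%. The pair and then Hspb1 or Hsph1 were thus the members that most often passed the cutoff. B cell-like cells had 1 (Hspb1, 51.2 and 11.7 CPM), against 2.42%. It reached the minimum only in WT CD, and Dcn, a marker of FAP-like cells, stood at 85.0 and 8.54 CPM in the same cells, whose part in the call was not tested. T or NK cell-like cells had 2 of the 9 with enough counts (Hspa1a and Hspa1b), against 16.6%. No member passed 1.5-fold higher in MuSC-like (all genes 17.8%), endothelial-like (6.89%), lymphatic-like (23%), macrophage-like (6.37%) or B cell-like cells (23.2%), and in T or NK cell-like cells Hspd1 did, from 138 to 244 CPM, against 23.3%. The members' median was −0.50 in MuSC-like cells (all genes 0.20), −0.56 in endothelial-like (−0.00), −0.31 in lymphatic-like (0.14), −0.42 in macrophage-like (0.02), −0.09 in B cell-like (0.36) and 0.04 in T or NK cell-like cells (0.07).

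Scaling by the trimmed mean of ratios moved all log2 ratios of this comparison by −0.22 in MuSC-like, −0.34 in B cell-like, −0.11 in lymphatic-like and −0.15 in whole libraries, with smaller shifts elsewhere. On that scale the members past 1.5-fold lower were 4 in FAP-like cells (Dnajb1 added, all genes 1.06%), 7 in MuSC-like cells (Dnajb1, Hsp90aa1 and Hspa8 added, all genes 8.93%) and 3 in B cell-like cells (Hspa1a and Hspa1b added, all genes 6.14%), with the same counts as before in the other 4 classes. The share of all genes past 1.5-fold higher became 8.49% in MuSC-like and 4.59% in B cell-like cells. The pair was then at −1.13 in FAP-like, −1.40 in MuSC-like and −0.74 in B cell-like cells. Hsp90aa1 and Hspa5 in B cell-like cells changed sign with it, from 0.16 to −0.17 and from 0.23 to −0.11.

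**Figure D3:**
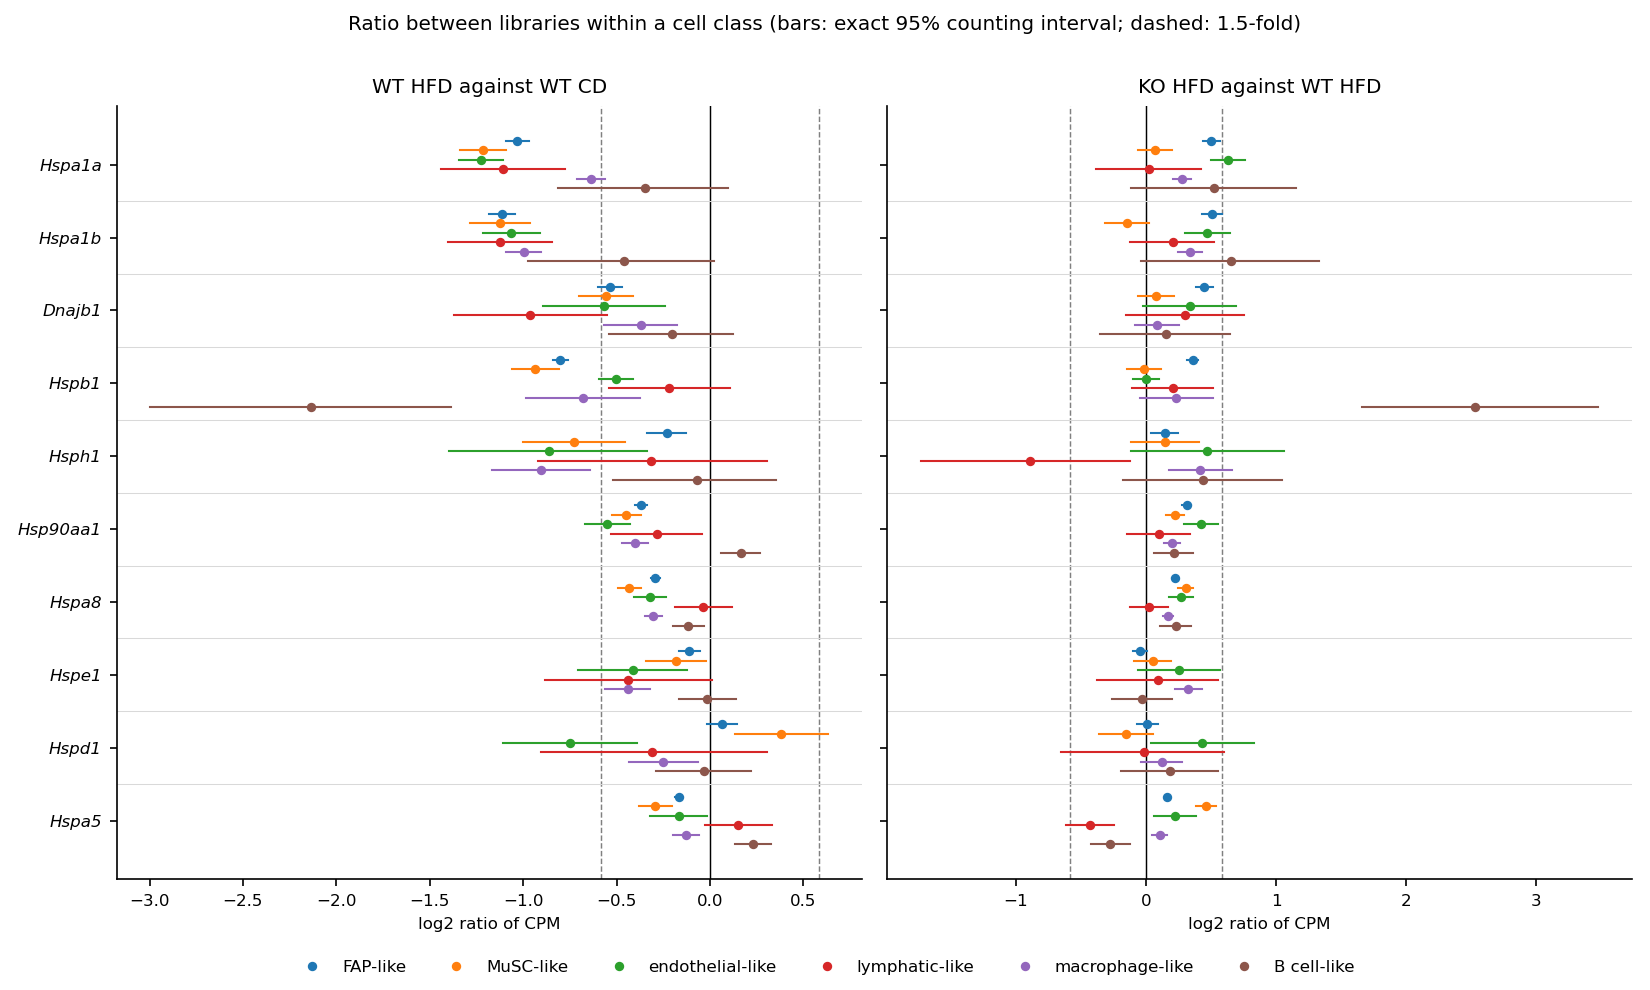
Log2 ratio of CPM (x axis) for each chaperone (y axis) in 6 cell classes, WT HFD against WT CD on the left and KO HFD against WT HFD on the right, with exact 95% counting intervals and dashed lines at 1.5-fold. On the left Hspa1a and Hspa1b lie below 0 in all 6 classes and past 1.5-fold in 5, and Hspa8, Hspe1 and Hspa5 stay within 1.5-fold. T or NK cell-like cells are left out for their low counts.

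FAP-like cells fell mainly into 8 clusters of at least 30 cells per library, built without the chaperones and stress genes. Clusters 2 and 6 had tenocyte markers among their leading genes, so the clusters are also given by number. The pair passed 1.5-fold lower in 8 of 8 clusters, with log2 ratios from −1.28 in cluster 5 (led by Sult1e1, Col6a5 and Penk) to −0.65 in cluster 8 (led by Sult1e1, Col6a5 and Vit). Cluster 0, led by Apod, Cxcl14 and Ccl11, had the highest pair level, with 970.0, 414 and 561 CPM, and also the highest mean level of Dnajb1, Hsph1, Hsp90aa1, Hspa8 and Hspa5 among the 8. Cluster 12, led by Col6a5, Sfrp4 and Timp1, had the lowest mean level of the pair, Dnajb1, Hsp90aa1, Hspa8 and Hspa5. Hspb1 fell past 1.5-fold in 7 of the 8 clusters (−0.89 to −0.46), Dnajb1 in 2 and Hspa5 in none (−0.27 to 0.11). With clusters 2 and 6 left out, a choice made after seeing the data, the class ratio of the pair was −1.14.

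Macrophage-like cells held the cluster with the highest pair level of those measured. Cluster 10, led by C1qa, Pf4 and C1qc, stood at 5061, 2036 and 3331 CPM (94, 234 and 207 cells), so it fell by 1.31 on the log2 scale on HFD. Cluster 11, led by Retnla, Lyz1 and Ccl6, stood at 627, 424 and 458 CPM (117, 102 and 205 cells), −0.56 on HFD and within 1.5-fold. Cluster 22, led by Slpi, Saa3 and Lyz2, stood at 187, 104 and 459 CPM and held 7, 53 and 13 cells. The clusters thus took different shares of the class in each library, and the class value of −0.78 mixes them. In endothelial-like cells, cluster 7 (Fabp4, Cldn5 and Cdh5) stood at 2993, 1487 and 2145 CPM, a log2 ratio of −1.01 on HFD. Cluster 14, which had more mural than endothelial markers among its leading genes, stood at 565, 383 and 145 CPM over 31, 59 and 38 cells.

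**Figure D4:**
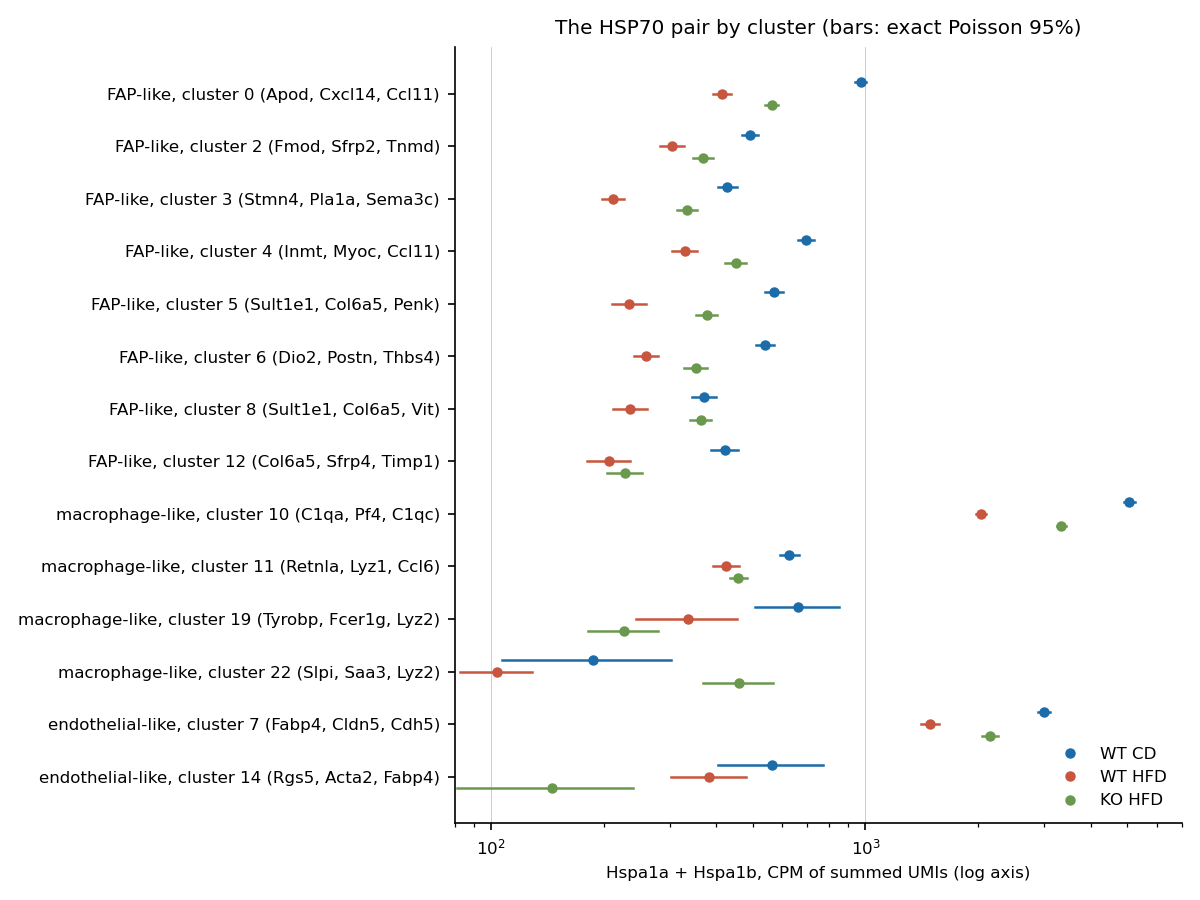
Hspa1a and Hspa1b together (x axis, CPM of summed UMIs, log scale) by cluster within 3 classes (y axis, with the cluster's 3 leading genes), 1 point per library with exact Poisson 95% intervals. The WT HFD point lies left of the WT CD point in all 8 FAP-like clusters, and macrophage-like cluster 10 holds the highest levels, 5061 CPM in WT CD.

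Counts of the pair per cell were compared at 1 depth. With each cell thinned to 3000 UMIs so that depth was alike, and 81, 37 and 55 shallower cells left out, 35.0, 56.5 and 46.3% of FAP-like cells had none of its UMIs. The mean was 1.90, 0.876 and 1.24 UMIs per cell. So the WT HFD library had more cells without a pair UMI, and its cells with many were also fewer: the 90th percentile was 5, 3 and 3 UMIs in FAP-like cells and 23.8, 13 and 16.5 in macrophage-like cells. Cells with a Hspa1a UMI made up 66.1, 49.5 and 58.6% of FAP-like cells at full depth and 47.1, 29.4 and 36.4% when thinned. In T or NK cell-like cells the thinned share was 5.26, 10.0 and 13.5% (median depths of 5786, 5334 and 4931 UMIs, against 8464, 9165 and 8437 in FAP-like cells), so FAP-like cells lay above it in each library. For Hspb1 the thinned share was 66.3, 52.8 and 56.5% in FAP-like cells and 1.75, 0 and 0% in T or NK cell-like cells, where 0 of 40 and 0 of 52 cells allow up to 8.81 and 6.85% (Clopper-Pearson, for cells with a UMI).

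The copies were often found in the same cell. Of thinned FAP-like cells with a Hspa1a UMI, 54.5, 37.5 and 43.8% also had a Hspa1b UMI, against 33.8, 20.04 and 27.3% of those without. In endothelial-like cells the shares were 78.0, 70.7 and 67.5% with Hspa1a and 38.1, 22.7 and 27.7% without.

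**Figure D5:**
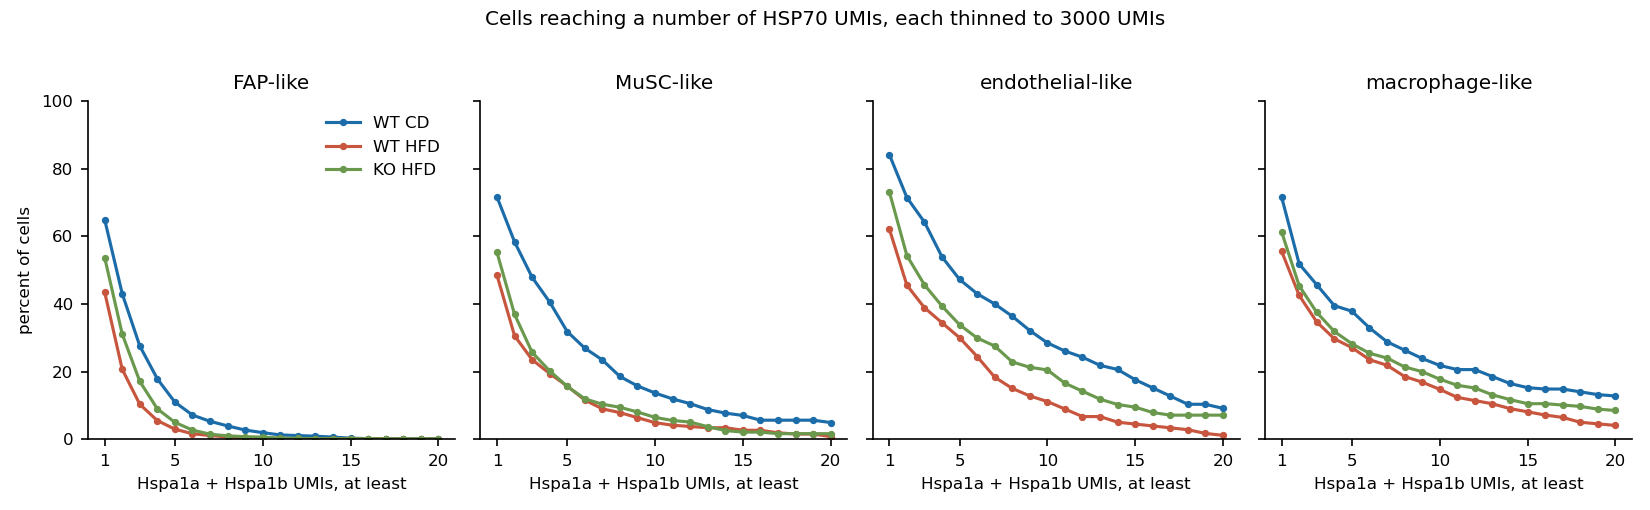
Percent of cells (y axis) with at least a given number of Hspa1a and Hspa1b UMIs (x axis) after each cell was thinned to 3000 UMIs, for 4 classes and 3 libraries. The WT HFD curve lies below the WT CD curve over this range in all 4 panels, and 43.5% of FAP-like cells in WT HFD had at least 1 UMI against 65.0% in WT CD.

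The other chaperones were compared between the diets in the same FAP-like cells, where 0.778% of all genes passed 1.5-fold lower, 0.64% passed it higher and 26.7% lay below 0. Of 30 other, mostly cytosolic chaperones and co-chaperones, 26 had enough counts, 1 passed 1.5-fold lower and none higher, with a median log2 ratio of −0.01 (all genes 0.09). The one was Hspa2, an HSP70 best known from the testis, from 63.5 to 41.8 CPM. Dnajb4 (−0.30), Hspa4 (0.24) and Dnajb6 (0.23) had the next largest ratios, and Hsp90ab1, the constitutive HSP90 and the most abundant of the list, stood at 1772 and 1769 CPM. All 8 subunits of the CCT chaperonin, which folds actin and tubulin, were within 1.5-fold (median 0.08), the largest being Cct3 (0.20), Cct6a (0.17), Cct2 (0.12) and Cct8 (0.08). Hsf1, which encodes the main heat shock transcription factor, stood at 18.3 and 18.1 CPM, under the minimum, as did Hsf2, and Hsbp1, a binder of HSF1, was at 0.13.

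Of 20 chaperones and response genes of the endoplasmic reticulum, 1 fell, Dnajb9, a co-chaperone of Hspa5, from 255 to 167 CPM, and the median was 0.06. Ddit3 (−0.34) and Sdf2l1 (−0.28) were lower and Hsp90b1, the HSP90 of that organelle, higher (0.30), all within 1.5-fold. Of 7 mitochondrial chaperones and proteases 5 had enough counts and none passed (median 0.05). The largest ratios were those of Clpp (−0.17), Hspa9 (0.08), Clpx (0.08) and Grpel1 (−0.07).

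The immediate early genes, which digestion is known to induce, were measured beside the chaperones. None of the 21 passed 1.5-fold in FAP-like cells, but 16 lay below 0 (26.7% of all genes did), with a median of −0.20 against 0.09 for all genes. Trimmed-mean scaling, which moves these ratios by −0.07, takes some of them past 1.5-fold lower, Ier5 included (all genes 1.06%). Ier5 stood at −0.56, Zfp36 at −0.43 and Nr4a1 at −0.42, and Fos, the most abundant, stood at 4013, 3955 and 4566 CPM. Their summed level was 21946, 19708 and 23721 CPM in FAP-like cells and 26459, 20386 and 24962 CPM in lymphatic-like cells. It was 18841, 16460.1 and 20859 CPM in endothelial-like cells, so in 3 of the 7 classes the sum was lowest in the WT HFD library, as the pair was. In MuSC-like cells both the sum (34915, 31356 and 30433.5 CPM) and the pair were lowest in KO HFD. The pair's order there was not settled, as its log2 ratio of KO HFD against WT HFD ran from −0.02 to 0.09 over the alternatives. In the other 3 classes the sum was lowest in WT CD and the pair in WT HFD, with sums in macrophage-like (16714, 19293 and 16962 CPM), B cell-like (11204, 11586.5 and 13762 CPM) and T or NK cell-like cells (13243, 14044 and 17941 CPM). The pair's diet ratio in B cell-like cells ran from −1.94 to 0.30 over the alternatives. With the cluster filter, chosen after seeing the data, T or NK cell-like cells had 70.5, 71.9 and 272 CPM of the pair, lowest in WT CD. None of the 21 genes was at 0 in any class. The part of digestion in the chaperone differences was not tested. Median mitochondrial shares of UMIs in FAP-like cells were 3.12, 2.80 and 2.97%.

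The KO HFD library was compared with the same WT HFD library, so both comparisons rest on it and are not independent. The pair was higher in KO HFD in 6 of 7 classes (in 7 after trimmed-mean scaling, and in lymphatic-like cells at −0.00 with every cell weighted alike), but past 1.5-fold in 1. In FAP-like cells it stood at 281 and 399 CPM, a log2 ratio of 0.51 (0.46 to 0.55), in endothelial-like cells at 1254 and 1865 CPM (0.57, 0.47 to 0.68) and in macrophage-like cells at 965 and 1189.6 CPM (0.30, 0.25 to 0.36). MuSC-like cells had 754 and 749 CPM (−0.01, −0.11 to 0.09) and lymphatic-like cells 647 and 710.0 CPM (0.13, −0.12 to 0.38), and both intervals, which cover counting error only, include 0. The ratio past 1.5-fold was in T or NK cell-like cells, from 71.9 to 272 CPM (1.92, 1.18 to 2.74), on 18 and 88 UMIs. B cell-like cells had 72.2 and 108 CPM (0.58, 0.12 to 1.04), and over the alternatives this ratio ran from −0.74 to 2.09.

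By member, none of 10 passed 1.5-fold higher in FAP-like cells, against 0.601% of all genes. Their ratios were 0.51 for Hspa1b, 0.50 for Hspa1a, 0.45 for Dnajb1, 0.36 for Hspb1, 0.31 for Hsp90aa1, 0.22 for Hspa8, 0.17 for Hspa5, 0.15 for Hsph1, 0.01 for Hspd1 and −0.05 for Hspe1. None passed higher in MuSC-like cells (all genes 2.09%), lymphatic-like cells (13%) or macrophage-like cells (2.18%). In endothelial-like cells 1 rose, Hspa1a from 781 to 1208 CPM, against 5.7%. With clusters of another name or of foreign leading markers left out, Hspa1a went from 932 to 1392 CPM there, within 1.5-fold. That filter was chosen after seeing the data. B cell-like cells had 2 members past 1.5-fold higher (Hspa1b and Hspb1, the latter with Dcn at 8.54 and 123 CPM) against 5.45%. T or NK cell-like cells had 3 (Hspa1a, Hspa1b and Dnajb1) against 20.9%. Past 1.5-fold lower were Hsph1 in lymphatic-like cells, 1 of 10 members against 18.4% of all genes, and Hsph1 and Hspd1 in T or NK cell-like cells, 2 of 9 against 21.9%. None passed it lower in FAP-like (all genes 0.24%), MuSC-like (4.1%), endothelial-like (7.12%), macrophage-like (3.22%) or B cell-like cells (16.9%). Trimmed-mean scaling moved this comparison by 0.15 in B cell-like cells, where 4 members then passed higher (Hspa1a and Hsph1 added, all genes 8.50%), and by under 0.1 in the others, where the members' counts were as before. The median over the members was 0.27 in FAP-like cells (all genes −0.05), 0.07 in MuSC-like (−0.05), 0.38 in endothelial-like (−0.00), 0.06 in lymphatic-like (−0.04), 0.22 in macrophage-like (0.03), 0.22 in B cell-like (−0.19) and 0.20 in T or NK cell-like cells (−0.02).

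Within FAP-like cells the pair was higher in KO HFD in 8 of 8 clusters, with log2 ratios of 0.14 to 0.69, the lowest in cluster 12. In macrophage-like cells it rose in cluster 10 (0.71, 0.65 to 0.77) and was within 1.5-fold in cluster 11 (0.11, −0.02 to 0.25). It also rose in cluster 22 (2.14, 1.70 to 2.59, with 53 and 13 cells), and cluster 19 was at −0.57 (−1.11 to −0.01). Endothelial-like cluster 7 was at 0.53 (0.42 to 0.63), while in cluster 14, with its mural markers, the pair fell by 1.40 on the log2 scale (−2.30 to −0.59). In MuSC-like cells Hspa8 (0.31, 0.25 to 0.36) and Hspa5 (0.46, 0.38 to 0.54) were higher although the pair was not, and both were within 1.5-fold.

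The lists around the members stood as follows in FAP-like cells of KO HFD against WT HFD. Of the other, mostly cytosolic chaperones 26 were compared and none passed, with a median of −0.05, equal to that of all genes at this precision. Hspa2 (0.53), Dnajb4 (0.36), Bag3 (0.33), a co-chaperone of HSP70 in autophagy, and Dnaja1 (0.30) had the largest ratios. The 8 CCT subunits had a median of −0.06, led by Cct8 (−0.14), Cct6a (−0.11), Cct3 (−0.11) and Cct5 (−0.06), and Hsbp1 was at −0.14. Of the 20 genes of the endoplasmic reticulum none passed, 16 lay below 0 (64.9% of all genes did) and the median was −0.22, with Dnajb9 at 0.45, Creld2 at −0.44, Hyou1 at −0.38 and Sdf2l1 at −0.35. Hspa5, which belongs to the same organelle, was at 0.17. The 5 mitochondrial genes had a median of −0.07, led by Clpx (−0.19), Hspa9 (−0.13), Clpp (−0.07) and Trap1 (0.05). Of the 21 immediate early genes none passed, 19 lay above 0 and the median was 0.27, with Nr4a1 at 0.58, Ier5 at 0.56, Atf3 at 0.48 and Zfp36 at 0.47. Trimmed-mean scaling, which adds 0.03 to these ratios, takes Nr4a1 and Ier5 past 1.5-fold higher (all genes 0.745%). In macrophage-like cells the median of the immediate early genes was −0.15 while that of the members was 0.22. In MuSC-like cells these medians were −0.07 and 0.07. They were 0.34 and 0.38 in endothelial-like cells and 0.27 and 0.06 in lymphatic-like cells. B cell-like cells had 0.29 and 0.22, and T or NK cell-like cells 0.39 and 0.20. The part of the immediate early genes in the chaperone differences was not tested.

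Genes with the most similar pattern were sought over 25 units, each a class with at least 30 cells in 1 library, as Pearson's r of log2(CPM + 10) among 6579 genes. The units share libraries and differ in depth, so r is a description. Outside the members, Hspa1a was most like Tubb2a (0.86), Ist1 (0.86), Gnaq (0.85), Spop (0.84) and Hip1 (0.83), and Hspb1 most like Strn3 (0.93), Tpm1 (0.93), Wwc2 (0.93), Afap1 (0.91) and Nfib (0.91). Hspa5 was most like Rcn3 (0.94), Ltbp3 (0.93), Fndc1 (0.91), Serping1 (0.91) and Khdrbs3 (0.90). Among the members, Hspa1a and Hspa1b had an r of 0.95, Dnajb1 and Hsph1 0.76, and Hspd1 and Hspe1 0.62, while Hspa1a and Hspe1 had −0.43 and Hspb1 and Hspe1 −0.68.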

How the data were processed

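Groups were taken from the sample labels. By the study's methods and the submitters' processing notes, the authors aligned 10x Genomics 3′ (v3.1) reads to GRCm38 (mm10) with Cell Ranger 6.1.1 and deposited unnormalized UMI counts for the barcodes called as cells. All 12275 barcodes were kept. Doublets (Scrublet, 1.26, 1.09 and 1.33% of WT CD, WT HFD and KO HFD barcodes) stayed in and were removed in an alternative. Each cell was gated on the markers of 18 classes (score of at least 0.15, 1.5 times the next class, 2 markers found). 1.51% of gated cells lay within 10% of a limit, and 95.7% fell in a Leiden cluster of the same name. UMIs were summed per class and library and divided by the class total (CPM), with exact Poisson intervals, exact conditional binomial intervals for ratios and Clopper-Pearson intervals for shares. PCR duplicates are merged by UMI, and the intervals cover counting error only. With 1 library per group no p-value was computed. All 10 members are named. Of each list the 4 genes with the largest absolute log2 ratio in FAP-like cells are named, except 1 that is not reported here, and 5 most similar genes for Hspa1a, Hspb1 and Hspa5. The members and lists were chosen with earlier results of these data known. Scripts used Python 3.11.15, numpy 2.4.6, scipy 1.17.1, scanpy 1.11.5, leidenalg 0.10.2, matplotlib 3.10.9 and, for trimmed-mean scaling, edgeR 4.0.16 in R 4.3.3, and were tested on simulated data. GENCODE and RefSeq tables of GRCm38 gave positions and start-site windows.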

Additional observations from a re-analysis of the deposited data

Results flagged for a closer look

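In Schwann-like cells (31 of WT CD, 29 of WT HFD and 33 of KO HFD), Hspb1 stood at 177, 749 and 897 CPM, a log2 ratio of 2.08 for WT HFD against WT CD (1.36 to 2.88), where FAP-like cells had −0.80. The difference between the classes was not tested.

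Hsph1 in lymphatic-like cells stood at 113 CPM in WT HFD and 60.9 CPM in KO HFD, a log2 ratio of −0.89 (−1.73 to −0.12) on 65 and 18 UMIs, where FAP-like cells had 0.15. This difference was not tested either.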

How the results depend on the processing

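Hspa1a in FAP-like cells stood at 343, 165 and 237 CPM in WT CD, WT HFD and KO HFD with every cell weighted alike, at 336 in WT CD and 233 in KO HFD without mitochondrial genes, and at 334 in WT CD and 233 in KO HFD with clusters of another name or of foreign leading markers left out. The share of these cells with a Hspa1a UMI, thinned, was 47.1, 29.4 and 36.4%. The pair's diet ratio in FAP-like cells was −1.13 with trimmed-mean scaling, −1.14 without the tenocyte-marker clusters and −1.13 with the cluster filter, and ran from −1.14 to −1.03 over all alternatives, with 4 members past 1.5-fold lower under these 3, Dnajb1 being added. Weighting classes alike moved the whole-library ratio of the pair to −1.06 for diet and 0.39 for genotype. The cluster filter turned the T or NK cell diet ratio of the pair to 0.029 and of Hspa1a to 0.14, and Leiden classes turned the B cell genotype ratio of Hspa1b to −0.60. The B cell diet ratio of the pair ran from −1.94 to 0.30. The cluster filter, the tenocyte and Jchain cluster removals and the equal weighting of FAP-like clusters were chosen after seeing the data. The cause of these shifts was not tested. Over single members, 458 of 513 diet and 478 of 513 genotype values stayed within the 95% counting interval of the reported one, 54 and 34 left it, and 1 each past 1.5-fold changed sign. Counting values within 1.5-fold too, 489 and 486 kept their sign. No paired analysis was possible because each group has 1 library. The limits include that single library per group and the low counts of the pair in the B and T or NK cell classes. They also include the few lymphatic-like cells (49, 99 and 56).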

Other observations

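Hspb1 in B cell-like cells stood at 51.2 CPM in WT CD, 11.7 in WT HFD and 67.3 in KO HFD, and Dcn, a proteoglycan gene of FAP-like cells, stood at 85.0, 8.54 and 123 CPM in the same cells, against 16237, 14142 and 15478 CPM in FAP-like cells. The part of FAP RNA in these Hspb1 counts was not tested.

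The B cell cluster led by Igkc, Jchain and Ighm held 91, 7 and 8 cells, and its Hspa5 level was 894, 2657 and 629 CPM. In the larger B cell cluster, led by Ly6d, Cd79a and Ms4a1, Hspa5 stood at 695, 661 and 802 CPM. The WT HFD value of the first cluster rests on 7 cells with 444 UMIs of Hspa5.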
